A study of Homo sapiens with 12 samples.

Results

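Total RNA levels were compared between A375 and A375/211. A375 is an established human melanoma cell line that carries an activated BRAF kinase, and A375/211 is the derived line that overexpresses MIR211, which encodes the microRNA miR-211. Both lines were grown in the same low-serum melanoma medium, and library preparation used a kit for total RNA that keeps strand. Members were chosen by assay: the 4 total RNA libraries of the 12 in the series, libraries a and b of A375 and libraries a and b of A375/211, with every gene row of their count table. The table listed 60675 Ensembl genes, of which 31852 had a count in any of the 4 libraries and 19258 passed a filter on low counts and were tested. The other 8 libraries hold RNA labelled with bromouridine for 24 h and chased (BRIC-seq), 1 library per line at each of 0, 1, 3 and 6 h, and served here only as another readout of the same genes. Counts summed to 20847481 and 28372099 in A375 libraries a and b and to 34130525 and 30528273 in A375/211 libraries a and b. No label says that a and b came from separate cultures, so the p-values measure the spread between these libraries, which may be technical. A single overexpressing line was set against a single parental line, so an effect of MIR211 cannot be told apart from any other difference between the lines. How A375/211 was made, and whether it is a clone, is not given in the sources used here. In bulk RNA, fewer cells with a transcript and less of it per cell cannot be told apart.

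MIR211 lies in an intron of TRPM1, a gene that the melanocyte transcription factor MITF activates, and both are known as markers of the pigment lineage. A microRNA guides Argonaute proteins to messenger RNAs that pair with its seed, mostly in the 3′ UTR, and lowers their stability or translation. In melanoma, miR-211 is often lost in amelanotic cells, and DUSP3, a phosphatase of MAP kinases, and PDK4, a kinase that shuts off pyruvate dehydrogenase, are reported targets.

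The targeted gene was detected only in the line labelled as overexpressing it. MIR211 had 0 counts in both A375 libraries and 36 and 18 counts in A375/211 a and b, at least 13.6-fold higher against a floor of 3 counts summed over the A375 group, and did not pass the test (edgeR adjusted p = 0.140). Which transcript these reads come from was not tested. The host gene TRPM1 had 3 and 4 counts in A375 and 4 and 1 in A375/211, below the filter, so no difference in the host was detectable at this depth.

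Both lines carried melanoma markers, and of the markers given next S100B alone passed the test. SOX10, a neural crest transcription factor, stood at 163 and 135 CPM (counts scaled to a common library size) in A375 and 206 and 232 CPM in A375/211. S100B, a calcium-binding marker of melanoma, rose from 32.6 and 29.0 to 94.6 and 100.1 CPM, a log2 change of 1.66 ± 0.17 (edgeR adjusted p = 0.0471). TYR, the rate-limiting enzyme of melanin synthesis, had 4 and 7 counts in A375 and 0 and 2 in A375/211, and MLANA, a melanosome antigen, had 5 and 2 against 3 and 0. PMEL, the melanosome fibril protein, was at 13.3 and 7.93 CPM against 3.86 and 3.56 CPM and did not pass (adjusted p = 0.169). DCT, a later enzyme of melanin synthesis, was detected in every library, at 27.1 and 67.4 CPM in A375 and 38.1 and 39.1 CPM in A375/211. Its log2 change of -0.29 ± 0.44 did not pass (edgeR adjusted p = 0.903). TYR and MLANA lay below the filter on low counts. The markers TYRP1, PRAME, S100A1, CSPG4 and MCAM did not pass either (edgeR adjusted p of 0.613 or more).

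The share of defining markers at 0 differed between the other cell types. Of 14 leukocyte markers 8 were at 0 in all 4 libraries, PTPRC and CD3E among them, and the list summed to 25.8 and 21.9 CPM in A375 and 17.3 and 10.2 CPM in A375/211. Of 17 keratinocyte markers 9 were at 0 everywhere, KRT5 and CDH1 among them, with sums of 21.2 to 30.9 CPM in A375 and 32.6 to 34.8 CPM in A375/211. Endothelial markers summed to 35.0 and 43.0 CPM against 31.5 and 46.5 CPM, with 5 of 11 at 0 in all libraries, PECAM1 and CDH5 among them. Fibroblast markers, several of which melanoma cells also express, summed to 34.5 and 82.4 CPM against 38.8 and 42.3 CPM, with 1 of 11 at 0. Neuron markers summed to 93.2 and 158 CPM against 51.8 and 81.7 CPM, with 2 of 11 at 0 in all libraries, RBFOX3 among them. Schwann cell markers, which include S100B, SOX10 and other genes of melanoma cells, summed to 628 and 433 CPM against 720.0 and 739 CPM, with S100B passing and 2 of 8 tested members separated higher. No Schwann cell marker of the 10 was at 0 in all libraries. The part of these cell types in the results was not tested.

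The sequence that connects the overexpressed gene to possible targets is the mature strand of miR-211, printed 5′ to 3′ from RefSeq (GRCh38.p14, chr15:31065095-31065116, minus strand), with the seed, bases 2 to 8, in capitals. Below it stand matching stretches of the 3′ UTRs of DUSP3 and PDK4, and of a selection of other genes that fell or rose. Each is read from hg38 in the sense of the transcript, with the match in capitals. ADCY1 also holds a match of 7 bases, at chr7:45722342-45722370, that is not printed. Other genes that passed, such as CA12, which fell, and TGM2, which rose, hold matches that are not printed either. A match to the 7 seed bases reads AAAGGGA, and a match of 8 bases reads AAAGGGAA.
hsa-miR-211-5p: uUCCCUUUgucauccuucgccu
DUSP3, chr17:43766549-43766577, minus strand: ggatggtttggAAAGGGAAtgttggtgcc
DUSP3, chr17:43766225-43766253, minus strand: ttctggacagaAAAGGGAgagctaccaaa
PDK4, chr7:95585321-95585349, minus strand: ataagaataagAAAGGGAgtgagtgtgaa
ADCY1, chr7:45723081-45723109, plus strand: ttaacaaaaatAAAGGGAAaaaattgctt
SLC39A11, chr17:72646977-72647005, minus strand: gggacacagaaAAAGGGAAggaaattggc
IL7R, chr5:35876525-35876553, plus strand: aagatgatttaAAAGGGAAgtctagagtt
IL7R, chr5:35877184-35877212, plus strand: tttggaaagtgAAAGGGAAacttacatat
FAT3, chr11:92894806-92894834, plus strand: tgaaaggctggAAAGGGAActagtttctg

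Both reported targets fell. DUSP3 measured 67.8 and 71.8 CPM in A375 and 15.02 and 10.4 CPM in A375/211, a log2 change of -2.46 ± 0.25 (edgeR adjusted p = 0.0471). PDK4 measured 61.3 and 56.8 CPM against 13.4 and 13.7 CPM, a log2 change of -2.12 ± 0.17 (edgeR adjusted p = 0.0396). For both genes the 2 lines did not overlap. Neither passed in any of the 4 fits that left out 1 library. Both kept their sign there.

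Seed matches were found on both sides of the comparison. Among 13391 tested protein-coding genes with an annotated 3′ UTR, 19.6% held AAAGGGA and 9.21% held AAAGGGAA, searched on the transcript strand, where every longer match contains the shorter. Of the genes that passed, 11 of 37 lower genes and 8 of 34 higher genes held the 7-base match, and 8 and 6 the 8-base match. The median log2 change was 0.0055 over the 10773 genes without a 7-base match, 0.0097 over 2047 genes with a single match and -0.0093 over 571 genes with 2 or more. With the 8-base match the median was -0.025 over 1233 genes, against 0.0088 over the 12158 others. The difference of these medians was -0.082 between the a libraries and 0.013 between the b libraries, so its sign differed with the pair of libraries used.

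Genes with the 8-base match were more often among the clearly lower ones, a difference that was not tested. A gene is called separated here when both libraries of one line lay above both libraries of the other and the fitted change was at least 2-fold. This is a description without a test. Over all 19258 genes 4.88% were separated with A375/211 higher and 4.09% with A375/211 lower. Among genes with the 8-base match 5.68% were separated lower, against 3.86% of those without it, and 4.87% against 5.17% were separated higher. Genes with the match had longer 3′ UTRs, a median of 3351 against 1205 bases. Among genes with a 3′ UTR over 2195 bases the shares separated lower were 6.16% with and 3.71% without the match. Between 750 and 2195 bases they were 5.19% and 4.05%. Below 750 bases they lay the other way, 1.49% of 67 genes with the match and 3.80% without it.

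Of the 19258 genes, 100 passed at an edgeR adjusted p under 0.05 (0.519%), 46 higher (0.239%) and 54 lower (0.28%) in A375/211, and 2165 had an unadjusted p under 0.05. The scaling centres the changes, and the median log2 change over all genes was -0.0033. The smallest change that passed was 3.15-fold, and adjusted p-values of the 100 genes ran from 0.0116 to 0.0499. The 100 genes were all called by DESeq2, which called 748 genes (3.88%). Calls were lost in each of the fits that left out 1 library. Such a fit leaves a line with a single library, so it cannot show that a particular library decided a call. All 100 kept their sign in each of those fits. Only UTS2, BIRC7, CACNA2D4, FAT3, GLDC and IZUMO3 passed in every one, and 42 passed in none.

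**Figure D1:**
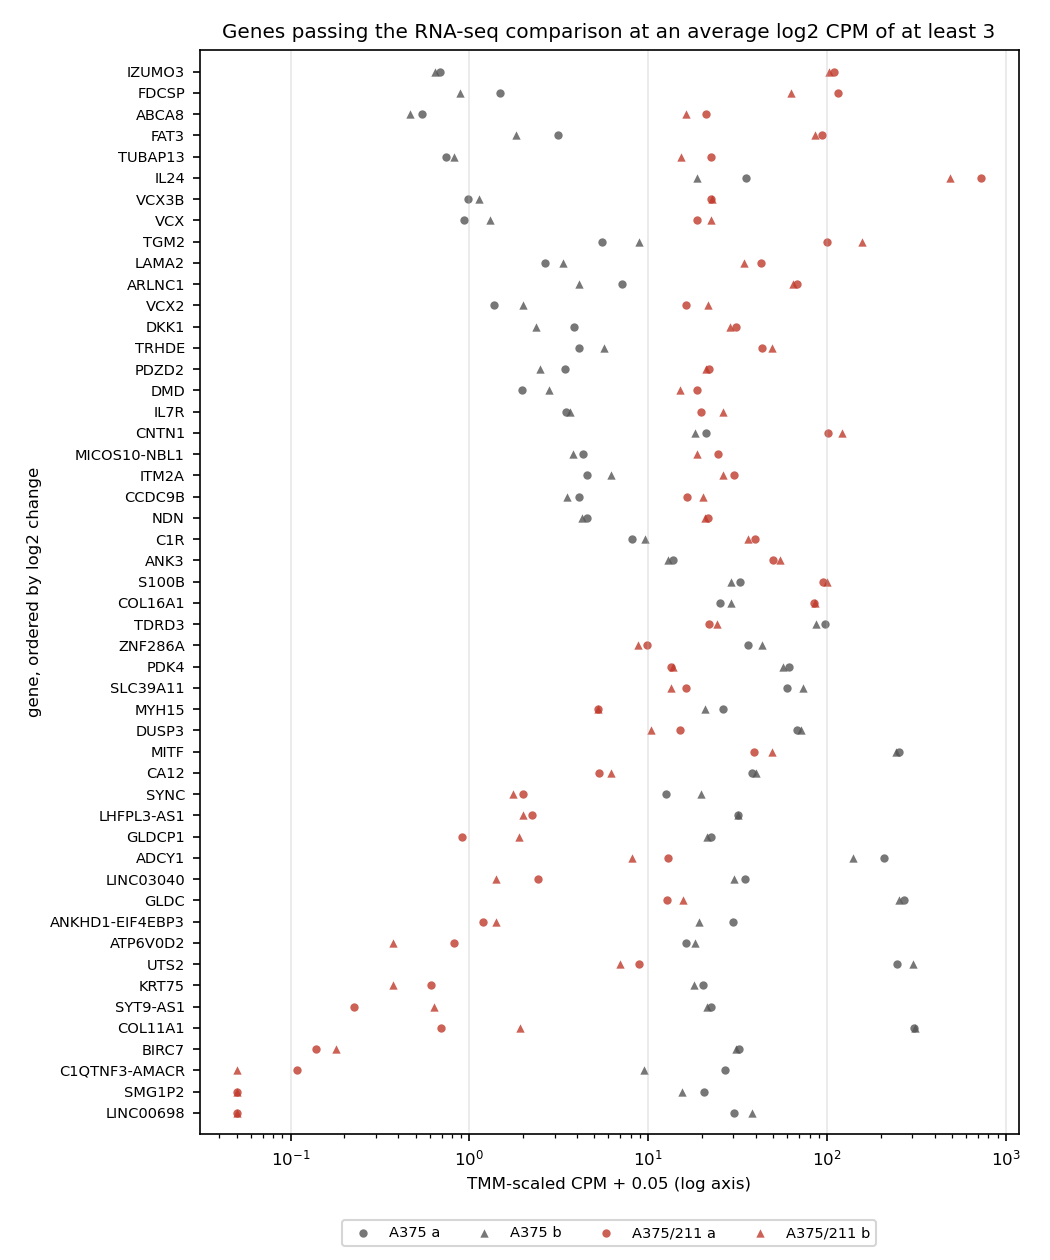
Normalised counts (CPM) in each of the 4 total RNA libraries (log axis, 0.05 CPM added) for the 50 genes with a symbol that passed, averaged a log2 CPM of 3 or more and did not overlap between lines, 26 higher and 24 lower in A375/211. Each point is 1 library, and the points of the lines lie apart in every row, as the choice of these genes requires.

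Genes of lineage regulation were among those that fell. MITF, the master regulator of melanocytes, went from 253 and 244 CPM in A375 to 38.8 and 49.0 CPM in A375/211, a log2 change of -2.50 ± 0.20 (edgeR adjusted p = 0.0381), or 5.65-fold lower. BIRC7, an inhibitor of apoptosis that MITF activates, was at 32.1 and 31.0 CPM against 0.0884 and 0.129 CPM (log2 change -8.13 ± 0.30). It had the smallest adjusted p of the genes that fell, 0.0156, and lies at chr20:63235883-63240495 (hg38, GENCODE 44). MITF no longer passed when any 1 library was left out.

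Reported MITF target genes lay mostly lower. Of 42 tested members of a list of 50, 1 passed, BIRC7, 12 were separated lower (28.6%) and 3 higher (7.14%), the median log2 change was -0.48 and 8 members were above 0. LGALS3, a sugar-binding lectin, measured 108 and 93.5 CPM in A375 and 33.2 and 26.6 CPM in A375/211 (log2 change -1.75 ± 0.20) without passing (edgeR adjusted p = 0.0550). LZTS1, a leucine-zipper protein, measured 55.5 and 78.6 CPM against 17.6 and 18.6 CPM. BCL2A1, a survival factor of the BCL2 family that NF-kB also activates, stood the other way, at 4.03 and 3.58 CPM against 20.8 and 15.1 CPM (log2 change 2.24 ± 0.26, edgeR adjusted p = 0.0567). In the labelled RNA the same list had a median log2 line difference of 0.58 over 28 members, on the other side of 0. The count of separated lower targets was 10 to 17 when 1 library was left out.

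The list of melanoma and neural crest identity genes showed no such shift. Of 28 tested members S100B rose and MITF fell, 4 were separated higher (14.3%) and 2 lower (7.14%), and the median log2 change was 0.25. FOXD3, a neural crest transcription factor that represses MITF, stood at 5.75 and 6.26 CPM in A375 and 18.2 and 23.2 CPM in A375/211, above in both libraries but without passing (edgeR adjusted p = 0.0635). ETS1, a transcription factor of the ERK pathway, stood at 41.8 and 49.97 CPM against 96.2 and 94.5 CPM (adjusted p = 0.105).

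Metabolic enzymes, a zinc transporter and a proton pump subunit fell. GLDC, the glycine-cleaving decarboxylase of mitochondria (chr9:6532467-6645729), measured 269 and 254 CPM in A375 and 12.7 and 15.6 CPM in A375/211, 18.5-fold lower (log2 change -4.21 ± 0.21, edgeR adjusted p = 0.0309). Its processed copy GLDCP1 went from 22.4 and 21.2 CPM to 0.854 and 1.84 CPM. The gene and its copy may share reads, and how such reads were counted is not given in the sources used here. CA12, a membrane carbonic anhydrase, fell from 37.8 and 40.2 CPM to 5.24 and 6.18 CPM (log2 change -2.77 ± 0.20). SLC39A11, a zinc transporter, fell from 60.0 and 73.0 CPM to 16.1 and 13.46 CPM (log2 change -2.17 ± 0.21). ATP6V0D2, a subunit of the proton pump known from osteoclasts, fell from 16.3 and 18.2 CPM to 0.766 and 0.324 CPM (log2 change -4.96 ± 0.44).

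The rest of those lists moved little. Among 28 tested genes of glycine, serine and one-carbon metabolism only GLDC passed or was separated, and the median log2 change was -0.20. Among 38 genes of glycolysis and pyruvate handling only PDK4 was, with a median of -0.15. Of 23 V-ATPase subunits ATP6V0D2 alone was separated (median -0.18), and of 227 SLC transporters 8 were separated higher (3.52%) and 10 lower (4.41%), shares near those of all genes. SLC12A8, a transporter of the cation-chloride family, stood at 22.3 and 37.8 CPM against 3.50 and 4.24 CPM without passing (adjusted p = 0.0550).

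In the list of fatty acid genes the separated members lay lower. None of 44 genes of fatty acid and lipid droplet metabolism passed, 5 were separated lower (11.4%) and 0 higher, and the median was -0.14. PPARG, the nuclear receptor of fat storage, measured 67.5 and 76.9 CPM in A375 and 25.9 and 30.2 CPM in A375/211 (log2 change -1.37 ± 0.19, edgeR adjusted p = 0.0709). Its coactivator PPARGC1A, which drives mitochondrial biogenesis and is itself a reported MITF target, measured 6.63 and 2.96 CPM against 0.501 and 0.259 CPM. PLIN2, a lipid droplet coat protein, was at 648 and 899 CPM against 362 and 389 CPM. APOE, a lipid carrier of the cholesterol list, was at 183 and 148 CPM against 21.9 and 8.35 CPM (adjusted p = 0.0861). It was the only separated gene of 28 in that list (3.57%), where 4.09% of all genes were separated lower. The cholesterol list had a median log2 change of -0.10 between lines. Between libraries a and b of A375/211 its median log2 difference was 0.53, with 25 genes higher in library a.

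Signalling enzymes and peptides were split between the directions. ADCY1, an adenylyl cyclase that makes cyclic AMP (chr7:45574140-45723116), fell from 209 and 140.3 CPM to 12.9 and 8.06 CPM (log2 change -4.06 ± 0.36, edgeR adjusted p = 0.0427). PDE2A, a phosphodiesterase that breaks cyclic nucleotides down, rose from 0.197 and 0.139 CPM to 6.27 and 4.08 CPM (log2 change 4.94 ± 0.46). RGS8, which shortens G protein signals, rose from 0.590 and 0.418 CPM to 8.22 and 7.99 CPM. Of the 85 tested genes of G protein and cyclic nucleotide signalling, these 3 passed. Of the 85, 8 were separated higher (9.41%) and 7 lower (8.24%), where 4.88% and 4.09% of all genes were.

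UTS2, the vasoactive peptide urotensin, fell 35.0-fold, from 247 and 302 CPM to 8.81 and 6.89 CPM (log2 change -5.13 ± 0.25, edgeR adjusted p = 0.0309). FDCSP, a small secreted peptide of follicular dendritic cells, rose from 1.43 and 0.835 CPM to 116 and 63.0 CPM (log2 change 6.32 ± 0.49, edgeR adjusted p = 0.0380). TRHDE, a peptidase that inactivates thyrotropin-releasing hormone, rose from 4.08 and 5.60 CPM to 43.4 and 49.5 CPM. DKK1, a secreted inhibitor of WNT signalling, rose from 3.78 and 2.30 CPM to 31.0 and 28.5 CPM (log2 change 3.30 ± 0.31). WNT5A, a ligand of non-canonical WNT signalling, stood at 6.14 and 4.38 CPM against 23.8 and 24.6 CPM (adjusted p = 0.0549), and its receptor ROR2 at 2.85 and 2.71 CPM against 0.648 and 0.453 CPM (adjusted p = 0.0798). Of 48 WNT pathway genes DKK1 alone passed, 6 were separated higher (12.5%) and 3 lower (6.25%), where 4.88% and 4.09% of all genes were.

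Extracellular matrix genes changed in both directions. COL11A1, a fibrillar collagen chain (chr1:102876467-103108872), fell from 306 and 310.1 CPM in A375 to 0.648 and 1.88 CPM in A375/211 (log2 change -7.93 ± 0.59, edgeR adjusted p = 0.0368). COL16A1, a fibril-associated chain, rose from 25.2 and 29.0 CPM to 85.0 and 85.5 CPM (log2 change 1.66 ± 0.17). Of 29 tested collagen chains these 2 passed. Another 2 stood out without passing: COL5A2 at 99.4 and 107 CPM against 288 and 363 CPM, and COL1A2 at 17.2 and 50.98 CPM against 0.236 and 0.518 CPM. In all, 7 collagens were separated higher (24.1%) and 4 lower (13.8%). COL13A1 had counts in A375/211 alone and so was tested only through that line.

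LAMA2, the laminin chain of muscle and Schwann cell basement membrane, rose from 2.60 and 3.31 CPM to 42.8 and 34.4 CPM (log2 change 3.70 ± 0.25, edgeR adjusted p = 0.0336). Of 21 laminin and basement membrane genes LAMA2 alone passed, 5 were separated higher and 4 lower, with NTN4 and LAMA3 above and FREM1 below. NID2, a basement membrane protein, had counts in A375/211 alone and was tested only through that line. TGM2, a transglutaminase that crosslinks matrix proteins, rose from 5.46 and 8.84 CPM to 100.2 and 156 CPM (log2 change 4.16 ± 0.38, edgeR adjusted p = 0.0427). Among 33 matricellular glycoproteins none passed. SPP1, the secreted phosphoprotein osteopontin, stood at 154 and 95.5 CPM against 29.0 and 23.6 CPM, and FBN1, the microfibril protein fibrillin, at 60.3 and 46.0 CPM against 149 and 126 CPM. Of 73 matrix proteases and inhibitors 9 were separated in each direction (12.3%), including MMP2, a gelatinase, at 24.9 and 28.1 CPM against 67.0 and 71.0 CPM.

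Adhesion molecules of the cadherin and immunoglobulin families lay mostly higher, and those of cell junctions did not. FAT3, a giant protocadherin (chr11:92224818-92896473), rose from 3.10 and 1.77 CPM to 94.2 and 85.5 CPM (log2 change 5.22 ± 0.34, edgeR adjusted p = 0.0333). CNTN1, a contactin of the neural immunoglobulin family, rose from 21.1 and 18.3 CPM to 102 and 122 CPM (log2 change 2.51 ± 0.20). Of 87 cadherins and protocadherins FAT3 alone passed, 14 were separated higher (16.1%) and 5 lower, and 66 were above 0 with a median of 0.54. With a mean of at least 5 CPM required, 40 of the 87 remained, 4 separated higher and 2 lower. Many of the members separated higher are protocadherins of chromosome 5. There PCDHGA9, PCDHGA1, PCDHGB5 and others end at the same annotated base and may share reads, so the counts are not independent genes. Of 38 immunoglobulin-type adhesion molecules 7 were separated higher (18.4%) and 1 lower (2.63%). NFASC, which assembles nodes of Ranvier, stood at 5.41 and 4.91 CPM against 17.9 and 17.5 CPM. CADM1 stood at 16.6 and 16.2 CPM against 43.9 and 48.7 CPM. Neither passed (adjusted p = 0.0549 and 0.0567). Of 20 tight and gap junction genes 5 lay above 0, 2 were separated higher (10%) and 3 lower (15%), with a median of -0.27. Of 19 integrin subunits 1 was separated in each direction (5.26%).

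Structural and cytoskeletal genes that passed included DMD, the membrane linker dystrophin, which rose from 1.92 and 2.75 CPM to 18.8 and 15.1 CPM. ANK3, an ankyrin of the membrane skeleton, rose from 13.7 and 12.9 CPM to 49.8 and 54.5 CPM (log2 change 1.97 ± 0.18). PKP2, a desmosomal plakophilin, rose from 0.197 and 0.104 CPM to 6.21 and 7.31 CPM. MYH15, a myosin heavy chain, fell from 26.2 and 20.6 CPM to 5.18 and 5.21 CPM (log2 change -2.17 ± 0.22). SYNC, an intermediate filament partner, fell from 12.6 and 19.7 CPM to 1.94 and 1.71 CPM, and KRT75, a hair follicle keratin, from 20.2 and 18.1 CPM to 0.560 and 0.324 CPM (log2 change -5.42 ± 0.34). Both libraries of each line lay on their own side for all of these genes, as their choice required, with PKP2 named after its values were seen.

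Cytokine and receptor genes were among those that rose. IL24, a cytokine of the interleukin 10 family (chr1:206897443-206904139), rose from 35.4 and 18.8 CPM to 729.8 and 488 CPM (log2 change 4.49 ± 0.43, edgeR adjusted p = 0.0443). IL7R, the interleukin 7 receptor chain, rose from 3.44 and 3.62 CPM to 19.7 and 26.1 CPM (log2 change 2.69 ± 0.25). IL1B, the inflammatory interleukin 1 beta, measured 0.836 and 0.209 CPM in A375 and 70.9 and 31.1 CPM in A375/211. Its log2 change of 6.68 ± 0.78 did not pass (edgeR adjusted p = 0.0567). Of 47 tested interleukins and receptors 2 passed, both higher, 11 were separated higher (23.4%) and 2 lower.

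Genes that NF-kB is known to activate lay mostly higher without any passing. Of 34 tested members 9 were separated higher (26.5%) and 1 lower, and 26 were above 0 with a median of 0.27. PTGS2, the inducible cyclooxygenase, measured 4.37 and 2.78 CPM in A375 and 87.9 and 38.8 CPM in A375/211 (log2 change 4.15 ± 0.52, edgeR adjusted p = 0.0627). CXCL1, a neutrophil chemokine, measured 24.1 and 10.6 CPM against 83.1 and 87.2 CPM, and CXCL8, its relative, 165 and 48.5 CPM against 367 and 210.1 CPM. Library a of A375 lay above library b for 32 of the 34 genes, with a median a minus b of 0.65 on the log2 scale. In A375/211 the figures were 25 of 34 and 0.27. The part of this library difference in the result was not tested.

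Antigen presentation genes lay mostly higher, without a test of the classes against each other. Of 35 tested, 8 were separated higher (22.9%) and 1 lower, with none passing. Among 11 class II genes, which present peptides to helper T cells, 7 were separated higher and 1 lower and 10 lay above 0, with a median of 1.07. Among 17 class I genes 0 were separated and 14 lay above 0, with a median of 0.36. HLA-DRA, the alpha chain of HLA-DR, stood at 134 and 114 CPM in A375 and 258 and 290.1 CPM in A375/211 (log2 change 1.14 ± 0.18, edgeR adjusted p = 0.0939), and HLA-DPA1 at 82.0 and 76.3 CPM against 165 and 156 CPM. Interferon response genes had 37 of 43 above 0, 6 separated higher (14.0%), 2 lower (4.65%) and a median of 0.47. BST2, the virus tether, was the other way, at 13.1 and 14.02 CPM against 5.12 and 3.78 CPM. C1R, a protease that starts the complement cascade, rose from 8.11 and 9.57 CPM to 39.4 and 36.0 CPM (log2 change 2.09 ± 0.20), and its partner C1S stood at 0.246 and 0.244 CPM against 5.95 and 3.14 CPM (adjusted p = 0.0618).

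Receptor tyrosine kinases that were separated lay mostly higher. Of 34 tested none passed, 9 were separated higher (26.5%) and 1, ROR2, lower. TIE1 and EPHB1, receptors of this class, had counts in A375/211 alone and so entered the test only through that line. EPHA2, an ephrin receptor, measured 42.9 and 47.05 CPM in A375 and 123.3 and 121 CPM in A375/211 (log2 change 1.44 ± 0.16, edgeR adjusted p = 0.0549). EPHA7 measured 3.98 and 4.35 CPM against 14.7 and 12.6 CPM, and PDGFRB, a PDGF receptor, 4.42 and 4.66 CPM against 12.9 and 11.8 CPM. AXL, a receptor known from melanoma with low MITF, measured 109 and 62.6 CPM against 187 and 244 CPM without passing (adjusted p = 0.211). Of 45 genes of ERK feedback and output 5 were separated higher (11.1%) and 0 lower. HBEGF, an EGF receptor ligand, was among them, at 9.04 and 7.90 CPM against 26.3 and 19.5 CPM. DUSP4, another MAP kinase phosphatase, was too, at 235 and 188 CPM against 588 and 393 CPM. GDF15, a stress-induced hormone of the TGF-beta family, stood far lower, at 273 and 119.6 CPM against 12.4 and 9.48 CPM (log2 change -4.16 ± 0.48, edgeR adjusted p = 0.0553).

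Cancer-testis genes, which are silent in most adult tissues and active in germ cells and tumours, included genes with counts in A375/211 alone. Of 49 tested 22 were separated higher (44.9%) and 1 lower (2.04%). Of the 22, 12 had 0 counts in both A375 libraries and so entered the test only through A375/211, and the share is a description. IZUMO3, a sperm membrane protein (chr9:24542952-24545946), rose from 0.639 and 0.592 CPM to 109.9 and 103 CPM (log2 change 7.43 ± 0.22) and had the smallest adjusted p of all genes, 0.0116. VCX3B rose from 0.934 and 1.08 CPM to 22.4 and 22.8 CPM, VCX from 0.885 and 1.25 to 18.6 and 22.5 CPM, and VCX2 from 1.33 and 1.95 to 16.1 and 21.6 CPM. These are near-identical copies on the X chromosome whose reads may be divided among them. CTAG2, a tumour antigen of the same chromosome, fell from 18.1 and 10.2 CPM to 0 counts in both A375/211 libraries.

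Families differed within the list. All 9 tested GAGE genes were separated higher, each with 0 counts in both A375 libraries and low levels in A375/211, the highest of them 1.33 and 1.0999 CPM for GAGE12J. So were 4 of 5 genes with an SSX prefix, the other being SSX2IP, which shares only the prefix, and 2 of 3 PAGE genes. PAGE2, like GAGE12J chosen after its values were seen, stood at 13.4 and 13.7 CPM against 41.8 and 37.4 CPM (adjusted p = 0.0561). None of 9 CT45A genes and none of 9 MAGEA genes was separated. With a mean of at least 5 CPM required, 7 of 34 members were separated higher and 1 lower, where the NF-kB list had 7 of 30 and the antigen presentation list 7 of 27 higher. As the members of these families share sequence, the counts are not independent genes.

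**Figure D2:**
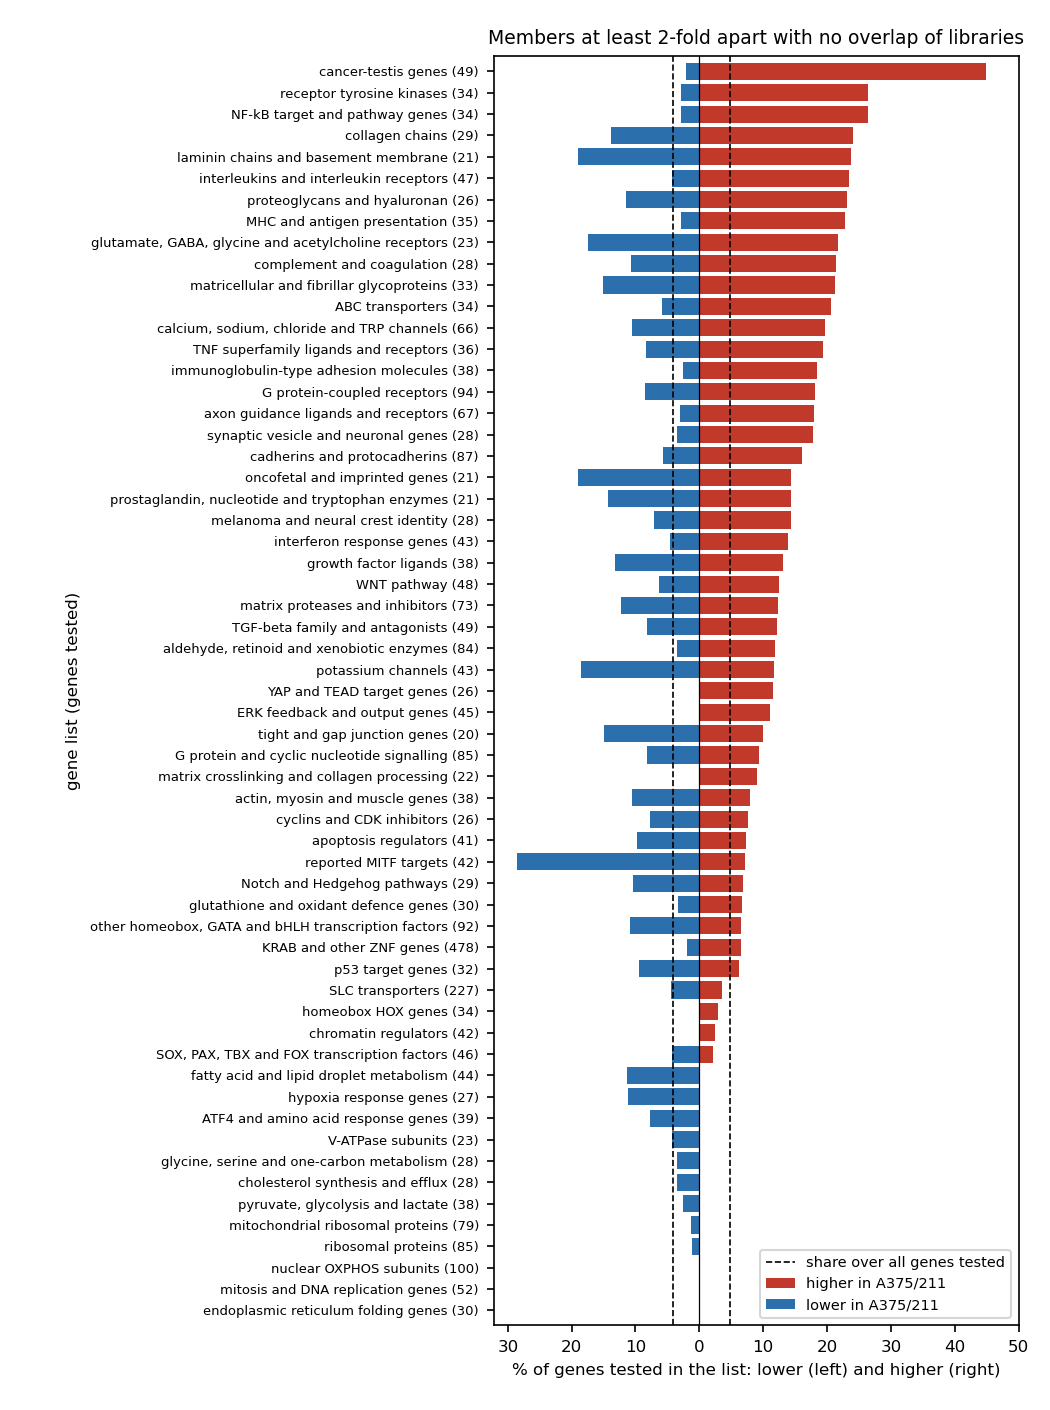
Share of the tested members of each of the 59 gene lists with at least 20 tested genes that were separated between lines, A375/211 higher to the right and lower to the left, in percent of the members. Dashed lines mark the shares over all 19258 genes, 4.88% and 4.09%, and reported MITF targets reach 28.6% to the left. Cancer-testis genes reach 44.9% to the right, where 12 of the 22 genes had 0 counts in A375 and were tested only through A375/211.

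Some lists had few or no separated members. Of the 59 lists with at least 20 tested genes, 43 had a share separated higher above that of all genes and 36 a share separated lower above it. The 3 lists with 0 separated in either direction were nuclear OXPHOS subunits (100 genes, median -0.049), mitosis and DNA replication genes (52 genes, median 0.19) and endoplasmic reticulum folding genes (30 genes, median -0.25). Of 85 ribosomal protein genes 1 was separated: RPL29, a large-subunit protein, stood at 746 and 663 CPM in A375 and 243 and 255 CPM in A375/211 (log2 change -1.50 ± 0.17, edgeR adjusted p = 0.0550). The median of the ribosomal list was -0.057. The 13 mitochondrially encoded messenger RNAs had 1 member above 0, 0 separated, and a median of -0.36. Their direction turned with the libraries: over the 21 tested genes of the mitochondrial chromosome the median difference was -0.59 between the a libraries, -0.026 between the b libraries and between -0.77 and 0.20 for the crossed pairs. Hypoxia response genes, a list with more lower members, had 4 of 27 members above 0, with CA12 passing and CA9 and STC2 also separated lower, and a median of -0.41.

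Some lists had larger median differences between libraries a and b than between lines. Mitosis and DNA replication genes were higher in library b for 50 of 52 genes in A375 and 51 of 52 in A375/211, with median a minus b differences of -1.20 and -0.73 on the log2 scale, where all genes had 0.017 and 0.00085. The 3 genes given here as examples were chosen after their values were seen. NUSAP1, a spindle protein, measured 37.2 CPM in library a and 146 in library b of A375, and 66.9 and 172 CPM in A375/211. The genes of the ATF4 and amino acid stress response went the other way, with 37 and 36 of 39 genes higher in library a and medians of 0.82 and 0.65. Between lines that list had a median of -0.37, with 4 of 39 above 0 and 3 separated lower (7.69%). CHAC1, a glutathione-degrading enzyme of that response, measured 72.0 and 11.4 CPM in A375 and 25.4 and 3.04 CPM in A375/211. Folding genes of the endoplasmic reticulum were higher in library a too (28 and 27 of 30, medians 0.65 and 0.48), HSPA5, the chaperone BiP, at 783 and 353 CPM in A375 and 539 and 309 CPM in A375/211. Of 11129 genes whose mean level reached a log2 CPM of 3 or more, 706 differed at least 2-fold between a and b in A375 and 331 in A375/211, of which 89 were higher in the same library in both lines and 23 in opposite ones.

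**Figure D3:**
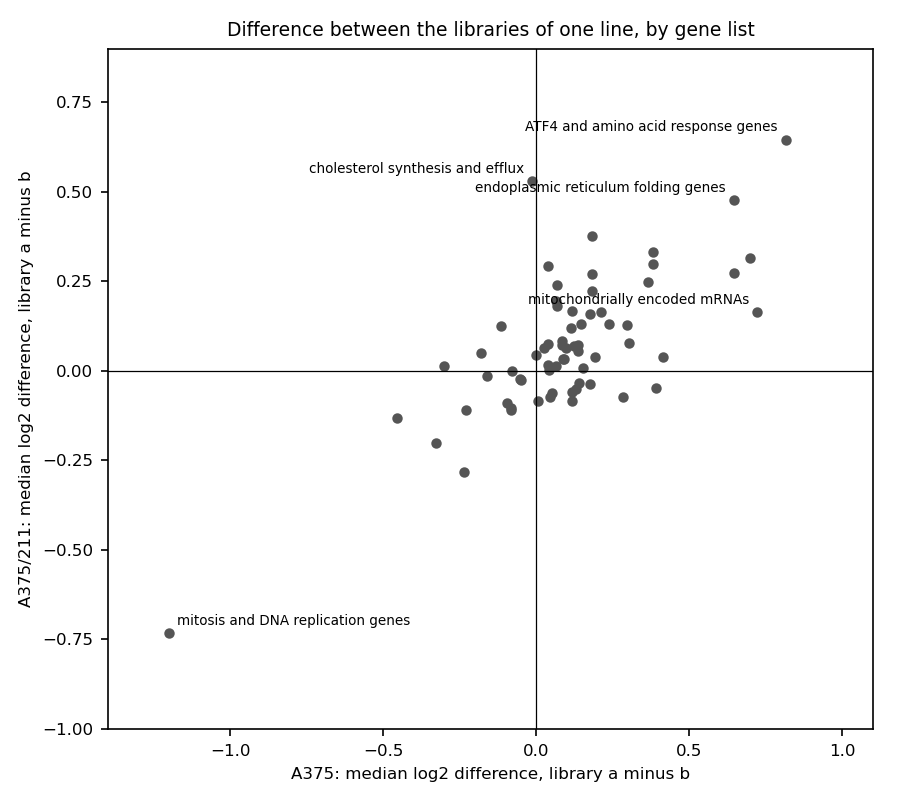
Median log2 difference between libraries a and b in A375 (x axis) and in A375/211 (y axis) for the 66 gene lists with at least 10 tested genes, 1 point a list. Mitosis and DNA replication genes lie at -1.20 and -0.73, and ATF4 response genes at 0.82 and 0.65.

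Genes of several classes passed. Of 13460 protein-coding genes 35 rose and 37 fell, and 5.19% and 4.02% were separated higher and lower. Of 2029 long noncoding RNAs 3 rose and 13 fell, 6.75% and 8.23% were separated, and 1002 lay above 0, a split near even whose difference from other classes was not tested. ARLNC1, a noncoding RNA known from prostate cells, rose from 7.13 and 4.04 CPM to 67.6 and 64.2 CPM (log2 change 3.57 ± 0.33). LHFPL3-AS1 fell from 31.7 and 31.8 CPM to 2.18 and 1.94 CPM, and LINC03040 from 34.9 and 30.3 CPM to 2.36 and 1.36 CPM. Of 2974 pseudogenes 3 rose and 4 fell. Antisense, readthrough and copied genes among those that passed, such as SYT9-AS1, ANKHD1-EIF4EBP3, C1QTNF3-AMACR and MICOS10-NBL1, may share reads with their neighbours, and whether strand was used in counting is not given in the sources used here.

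Some genes had counts in 1 line only. Of the genes tested, 89 had 0 counts in both A375 libraries, 58 of them protein coding, and 56 had 0 counts in both A375/211 libraries, 31 protein coding. Folds for these are lower bounds against a floor of 3 counts summed over the group. Such genes entered the test only through the line with counts, so those in gene lists could be separated in 1 direction only. SERPINB7, a serpin of skin and kidney, had 265 counts over both A375/211 libraries, at least 66.8-fold higher. RPL7P24, a ribosomal protein pseudogene, had 342 counts, at least 86.3-fold higher. On the other side LINC00698 had 1710 counts in A375, at least 753-fold lower in A375/211, the pseudogene SMG1P2 had 860, at least 379-fold lower, and CTAG2 had 662, at least 292-fold lower.

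Other genes that passed included ABCA8, a lipid transporter, which rose from 0.491 and 0.418 CPM to 21.1 and 16.3 CPM (log2 change 5.36 ± 0.31), and NDN, the imprinted growth suppressor necdin, which rose from 4.52 and 4.21 CPM to 21.6 and 20.7 CPM. PTPN22, a phosphatase of lymphocyte signalling, rose from 0 and 0.174 CPM to 13.3 and 15.3 CPM, with 0 counts in A375 library a. ANO1, a calcium-activated chloride channel, rose from 0.590 and 0.696 CPM to 6.98 and 9.28 CPM. CACNA2D4, an auxiliary calcium channel subunit, fell from 17.0 and 10.2 CPM to 0.0589 and 0 CPM. TDRD3, a scaffold that reads methylated arginine, fell from 96.9 and 86.9 CPM to 21.9 and 24.3 CPM (log2 change -1.99 ± 0.18). CYGB, the oxygen-binding cytoglobin, fell from 11.5 and 17.9 CPM to 0.118 and 0 CPM. PTPN22, CYGB and PKP2 were named after their values were seen, as they fall under the level set for named genes.

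The direction of small changes differed by chromosome. On chromosome 12, 67.7% of 1039 tested genes lay above 0, with a median of 0.15, and 7.99% were separated higher against 3.18% lower. On chromosome 13, 71.0% of 389 genes lay below 0, with a median of -0.21, and on chromosome 22, 67.7% of 439 genes did, with a median of -0.15. The labelled RNA had medians of 0.46, -0.37 and -0.19 for chromosomes 12, 13 and 22. Chromosome 19 had medians on opposite sides, 0.078 in total RNA and -0.24 in labelled RNA.

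**Figure D4:**
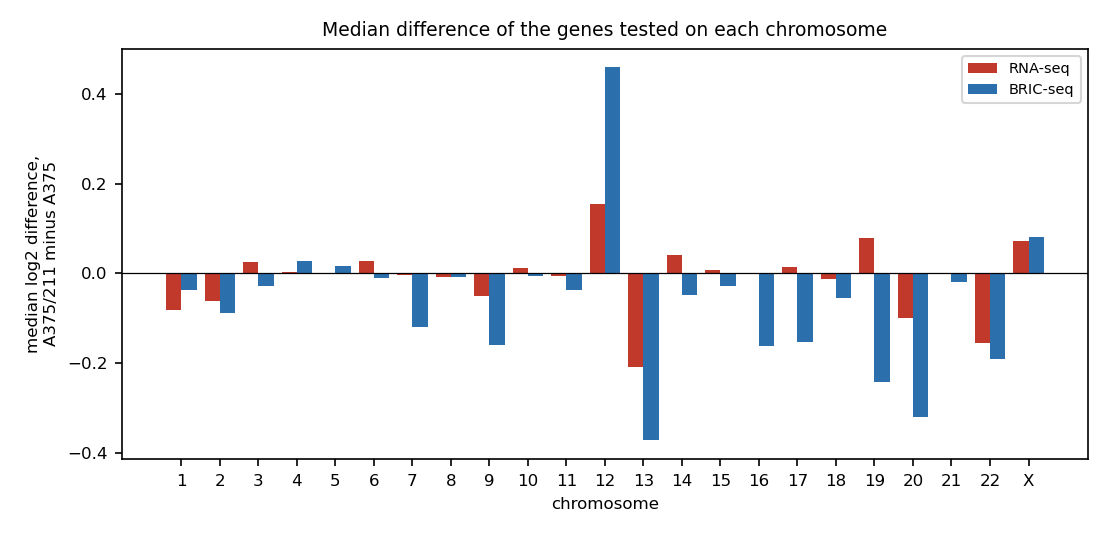
Median log2 difference of A375/211 against A375 over the tested genes of each autosome and X, in total RNA and in labelled RNA. Chromosome 12 lies highest in both, at 0.15 and 0.46, and chromosome 13 lowest in both, at -0.21 and -0.37.

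Within chromosomes, windows of 5 Mb with at least 10 tested genes (547 windows) were compared by their shares of separated genes. The window at 70 to 75 Mb of chromosome 12 had 5 of 14 genes separated higher (35.7%) and a median of 0.69. It holds TRHDE and its antisense TRHDE-AS1, at 1.18 and 1.22 CPM in A375 and 5.10 and 4.43 CPM in A375/211. The window at 140 to 145 Mb of chromosome 5, which holds the protocadherin clusters, had 13 of 101 genes separated higher, 2 lower and a median of 0.47. Its protocadherins belong to the cadherin list above, so the window is not a separate result. At 100 to 105 Mb of chromosome 13, 4 of 16 genes were separated lower and 0 higher. The window at 20 to 25 Mb of chromosome 6 had the same counts, and that at 0 to 5 Mb of X had 4 of 16 lower and 2 higher. The largest share separated higher was 36.4%, 4 of 11 genes at 35 to 40 Mb of chromosome 16, where 1 was lower.

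The labelled RNA gave a second reading of the same lines with other libraries. Of 13703 genes tested there, 14.5% passed higher and 14.0% lower in A375/211 in a fit with chase time as a factor, and over 12677 genes tested in both assays 57.6% had the same sign. Of the 46 genes that rose in total RNA, 30 were tested in labelled RNA, all 30 had the same sign and 25 passed, with medians of 3.63 over the 46 and 3.74 over the 30. Some of the 30, such as FDCSP and PTPN22, were at 0 CPM in labelled RNA of A375 at every chase time. Such genes could enter that test only through A375/211, so their sign was fixed by entry. Others, such as FAT3, had counts in both lines at every chase time. Of the 54 that fell, 18 were tested, 14 had the same sign, 8 passed lower and 2 passed higher. The median was -2.80 in total RNA over the 54 and -0.66 in labelled RNA over the 18, which are unlike sets of genes. COL11A1 and ADCY1 were lower in both, at log2 differences of -7.43 and -3.47 in labelled RNA. GLDC, MITF and DUSP3, by contrast, had labelled RNA differences of -0.31, -0.68 and -0.25 that did not pass (edgeR adjusted p = 0.503, 0.0989 and 0.585), and PDK4 passed at -0.78 (edgeR adjusted p = 0.0269). IL24 and FDCSP were higher by 7.83 and 12.12.

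**Figure D5:**
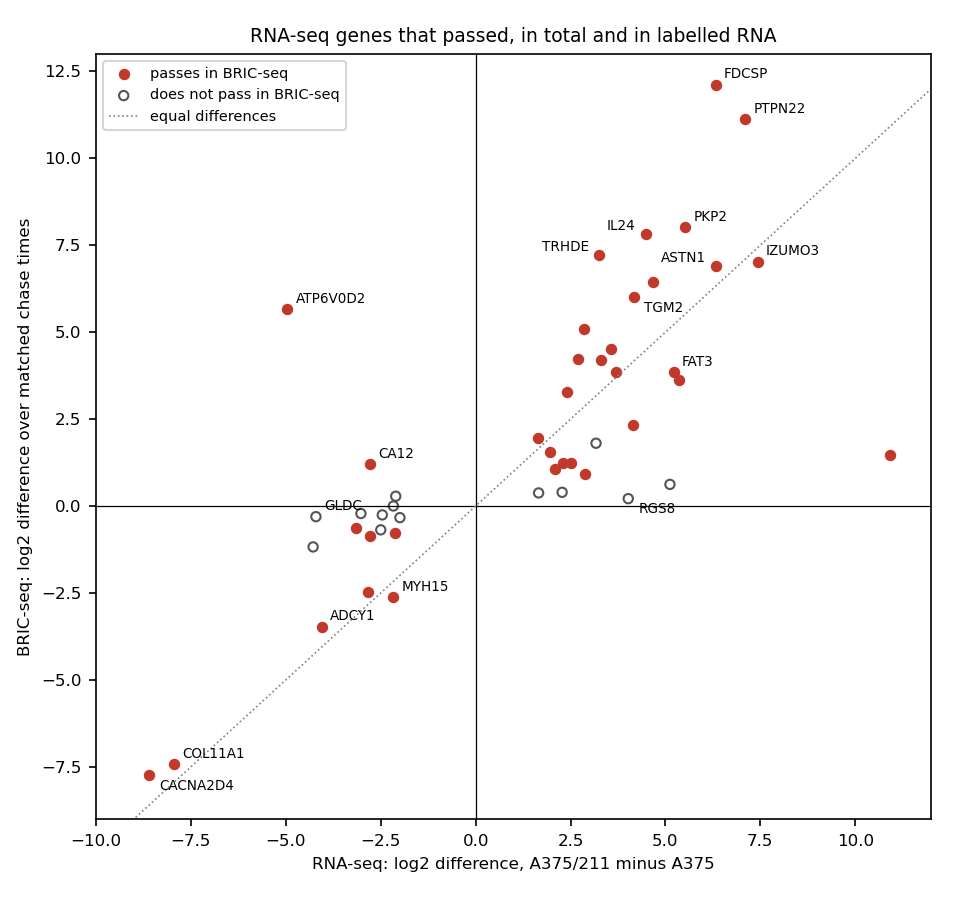
Log2 difference of A375/211 against A375 in total RNA (x axis) and in labelled RNA over the 4 chase times (y axis) for the 48 genes that passed in total RNA and were tested in both. The 30 genes that rose lie above 0 on both axes, and 4 of the 18 that fell, ATP6V0D2 and CA12 among them, lie above 0 in labelled RNA. Genes at 0 CPM in labelled RNA of A375, FDCSP and PTPN22 among them, could lie only above 0 there.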

How the data were processed

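The authors aligned reads with HISAT2 2.1.0 and quantified them with StringTie, per the submitters' processing notes. The build is given as hg19 there and as hg38 in the series' design text, so coordinates printed here come from GENCODE 44 on hg38 by Ensembl ID (found for 93.2% of the 60675 IDs). The deposited values are whole-number gene counts, not normalised. Strand and multi-mapping settings: not given in the sources used here. Libraries were grouped by their titles, and depth ran from 20847481 to 34130525 counts per library.

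Counts were scaled by TMM, filtered with filterByExpr (minimum count 10, minimum total 15) and tested with edgeR 4.0.16 (glmQLFit, glmQLFTest, line as the only term) in R 4.3.3, with Benjamini-Hochberg adjustment over all 19258 genes and a threshold of 0.05. Error values are the standard errors of log2 changes. DESeq2 1.42.0 and other scalings, filters and left-out libraries were alternatives. The deposited labelled RNA counts were fitted likewise with chase time as a factor. The procedure was tested on simulated data.

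Genes named are MIR211, TRPM1, DUSP3 and PDK4, genes with a symbol that passed at a mean log2 CPM of 3 or more without overlap, up to 4 separated members of smallest p per list and up to 3 per window, and up to 6 genes at 0 per direction. The gene lists (72) and members were chosen with earlier results of these data known. Members of lists were matched by symbol.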

Additional observations from a re-analysis of the deposited data

Results flagged for a closer look

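Of the genes separated in total RNA and tested in labelled RNA, 31 of 413 higher and 30 of 293 lower ones had the opposite direction at all 4 chase times and passed there. For 11 of them, each singled out by the rule for named genes or as a melanoma marker, the lines differed in opposite directions in total RNA and in labelled RNA, at all 4 chase times. Whether the assays differ was not tested, and labelled RNA has 1 library per line and time. Each labelled RNA difference passed (edgeR adjusted p under 0.05, with chase time as a factor). Without the rule on chase times, 33 of the 413 and 30 of the 293 passed in the opposite direction. Over all genes tested in labelled RNA, 14.0% passed lower and 14.5% higher. Opposite calls were thus no more common among separated genes than calls of that direction among all genes.

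Lower in A375/211 in total RNA and higher in labelled RNA were ATP6V0D2 (log2 difference in labelled RNA 5.66), SULT1B1, a sulfotransferase (2.73), PMEL (2.46), SPP1 (1.69), UNC5D, a netrin receptor (1.45), CA12 (1.20), LGALS3 (0.78) and IGFBP7, an insulin-like growth factor binding protein (0.62). ATP6V0D2 measured 0.883, 0, 0 and 0 CPM in labelled RNA of A375 at 0, 1, 3 and 6 h and 6.25, 3.77, 11.7 and 11.8 CPM in A375/211, so the A375 levels rest on few counts. CA12 measured 2.06, 1.69, 1.38 and 2.21 CPM against 2.99, 3.57, 3.45 and 6.62 CPM.

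Higher in A375/211 in total RNA and lower in labelled RNA were HGF, the hepatocyte growth factor (-3.25), NTS, the peptide neurotensin (-4.11), and BOC, a Hedgehog co-receptor (-2.53). HGF had 0 and 0.104 CPM in total RNA of A375 and 2.92 and 3.62 CPM in A375/211. In labelled RNA it had 243, 223, 49.7 and 18.5 CPM in A375 and 41.1, 18.0, 1.90 and 3.43 CPM in A375/211, far above its total RNA level at 0 h. NTS had 24.7, 35.5, 57.0 and 198 CPM in labelled RNA of A375 and 0, 2.38, 4.48 and 10.8 CPM in A375/211.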

How the results depend on the processing

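The count of genes that differed, 100 (46 higher, 54 lower), depended on the processing. DESeq2 called 748 (386 higher, 362 lower). Without a count filter 2 passed, 1 in each direction, over 31852 genes, and with a mean of at least 5 CPM 66 passed over 12298 genes, 34 of them lower. Leaving out 1 library gave 14 to 68 genes in all, 5 to 27 higher and 9 to 41 lower. In these fits the lone library of a line is assumed to vary like the other line's. The letters a and b do not say that libraries pair between lines. With them as a replicate block 410 genes passed, 192 higher and 218 lower, and the a minus b deviations of the lines correlated at 0.24 across 19258 genes, which are not independent replicates. The legacy quasi-likelihood fit gave 73 genes, DESeq2's size factors 99 and total counts 106. All 100 genes kept their sign wherever they were tested. Separated genes numbered 939 higher and 787 lower, and 279 and 255 with a mean of at least 5 CPM. Left-out libraries, an alternative chosen after seeing the data, gave 1086 to 1463 higher and 846 to 1258 lower, since with 1 library fewer more genes meet the rule. Over cancer-testis genes that range was 20 to 23 higher, and over NF-kB genes 7 to 13 higher. The counts in labelled RNA moved by less than the set margins under the alternatives run. The seed difference did so under the stricter filter on low counts, but its sign differed between the a and the b libraries (-0.082 and 0.013). None of the 100 changes was under 3.15-fold, which limits what these 4 libraries can show.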

Other observations

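Further lists held members separated in one or both directions. Of 32 tested p53 target genes 24 were above 0, with a median of 0.40. Of the 32, 2 were separated higher (6.25%) and 3 lower (9.38%), where 4.88% and 4.09% of all genes were. CDKN1A, a cell cycle inhibitor, measured 117 and 82.8 CPM in A375 and 229 and 251 CPM in A375/211 (edgeR adjusted p = 0.120), and PHLDA3, an AKT inhibitor, 115 and 93.9 CPM against 44.9 and 44.8 CPM (adjusted p = 0.0874). In labelled RNA the median of that list was -0.57 over 31 genes.

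Zinc finger genes had 291 of 478 members above 0 (60.9%, median 0.11), where 49.7% of all genes tested lay above 0. Of the 478, 31 were separated higher (6.49%) and 9 lower (1.88%), where 4.88% and 4.09% of all genes were. ZNF286A alone passed, falling from 36.3 and 43.4 CPM to 9.87 and 8.67 CPM. Their labelled RNA median was -0.26 over 379 genes. Potassium channels were separated in both directions, 5 higher (11.6%) and 8 lower (18.6%) of 43. KCNE4, an auxiliary subunit, fell from 8.60 and 11.6 CPM to 0.736 and 1.20 CPM (edgeR adjusted p = 0.0499). Of 67 axon guidance genes 12 were separated higher (17.9%) and 2 lower (2.99%), none passing.

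In the IGF axis 4 of 19 genes were separated lower (21.1%) and 1 higher (5.26%). IGFBP5 measured 77.3 and 42.9 CPM in A375 and 3.98 and 15.3 CPM in A375/211, IGFBP2 71.2 and 112 CPM against 24.2 and 34.8 CPM, and IGFBP6, which lay the other way, 13.2 and 11.8 CPM against 35.7 and 32.2 CPM. None passed.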
